A study of Homo sapiens with 12 samples.

Results

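NDRG1 and SLC2A3 are 2 of the 45320 genes counted in these RNA-seq libraries, and 2 of the 17020 that passed the filter on low counts. They were chosen by their measured values, namely their increase in ARID1A knockdown cells over control cells and how far that increase depended on estradiol and fulvestrant, so their knockdown difference and its dependence on treatment are given below as descriptions without a test. NDRG1 lies on chromosome 8 (hg19, 134249415 to 134314265, minus strand) and SLC2A3 on chromosome 12 (8071827 to 8088783, minus strand), and no other gene span in the count files overlaps either of them.

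The libraries came from Ishikawa cells, an established line of human endometrial cancer. One arm (shARID1A) carried a hairpin directed at ARID1A, the gene of the DNA-binding subunit of the BAF chromatin remodelling complex, and the other (shNC) a control hairpin. Each arm received DMSO vehicle, 10 nM 17-beta-estradiol (E2), or 10 nM E2 together with 100 nM fulvestrant, an estrogen receptor antagonist that also promotes loss of the receptor, for 8 h, with 2 libraries per group and 12 in all. All groups had been kept in hormone-depleted medium (free of phenol red, serum treated with charcoal and dextran), and no label names an exposure to low oxygen. The labels do not give the number of hairpins, clones or separate cultures. The p-values below thus rest only on spread between these libraries, estimated for each gene partly from other genes. An effect of ARID1A cannot be told apart from whatever else sets the shARID1A line apart from the shNC line.

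In low oxygen, the prolyl hydroxylases encoded by the EGLN genes and the ubiquitin ligase subunit VHL no longer remove the alpha subunits of the hypoxia-inducible factors (HIF1A and EPAS1), which pair with ARNT and activate genes for glucose uptake, glycolysis and stress adaptation. NDRG1 encodes an intracellular protein of the alpha/beta hydrolase fold that is induced by hypoxia and other stresses, is repressed by MYC family proteins and is phosphorylated by the kinases SGK1 and GSK3. SLC2A3 encodes GLUT3, a high-affinity glucose transporter of the cell membrane that is best known from neurons and is also induced through HIF. NDRG1 is one of the genes most often used as a transcript marker of tumour hypoxia.

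Each library held between 28810351 and 38657162 counts, and 3 counts, the floor used for a gene with 0 counts, came to 0.0811 to 0.103 CPM (counts per 1000000, after scaling by TMM factors), which covers counting error only. ARID1A had 53.8 to 61.7 CPM in the 6 shARID1A libraries, against 110 to 123 CPM in the 6 shNC libraries. ESR1, which encodes estrogen receptor alpha, had only 2 to 34 counts per library, at most 1.08 CPM. The 5 epithelial markers summed to 537 to 574 CPM in shARID1A cells and 852 to 930.2 CPM in shNC cells, nearly all of it KRT8 and KRT18. EPCAM averaged 0.747 CPM in shARID1A and 1.52 CPM in shNC cells, CDH1 averaged 0.211 CPM in shARID1A and 0.273 CPM in shNC cells, and KRT19 had at most 5 counts. The 5 stromal markers summed to 50.0 to 53.3 CPM in shARID1A cells and 32.2 to 43.9 CPM in shNC cells, mostly COL1A1, with LUM and COL1A2 at 3 counts or fewer. The neuronal markers, mostly TUBB3, summed to 197 to 220.2 CPM in shARID1A cells and 195 to 222 CPM in shNC cells. The immune markers reached at most 0.27 CPM in shARID1A cells and 0.769 CPM in shNC cells, the endothelial markers at most 0.264 CPM in shARID1A and 0.219 CPM in shNC cells, and PTPRC, CD3E and KDR, which define those cells, had at most 1 count. The part of the epithelial and stromal markers in the differences below was not tested. In RNA from whole cultures, fewer cells with a transcript and less of it per cell cannot be told apart.

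NDRG1 was among the more abundant transcripts, 206th of the 17020 tested genes by mean CPM, with 10819 to 31622 counts per library. In shARID1A cells it had 761 and 823 CPM with DMSO, 667 and 855 CPM with E2 and 767 and 789 CPM with E2 plus fulvestrant. In shNC cells it had 493 and 488 CPM with DMSO, 345 and 419 CPM with E2 and 408 and 449 CPM with E2 plus fulvestrant. All 6 shARID1A libraries were thus above all 6 shNC libraries, and the lowest shARID1A library was 1.35 times the highest shNC library. The averages were 777 ± 64.4 CPM in shARID1A cells and 434 ± 55.5 CPM in shNC cells (SD, n = 6 each).

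By group, the order of the NDRG1 means was 792 ± 43.5 CPM in shARID1A with DMSO, 778 ± 14.9 CPM in shARID1A with E2 plus fulvestrant and 761 ± 133 CPM in shARID1A with E2 (SD, n = 2 each). The shNC groups followed with 490.4 ± 3.83 CPM for DMSO, 428 ± 28.5 CPM for E2 plus fulvestrant and 382 ± 51.9 CPM for E2. Neighbours in this order overlapped within the shARID1A arm. Within the shNC arm, both DMSO libraries lay above the 4 others, while E2 and E2 plus fulvestrant overlapped.

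The knockdown difference of NDRG1, shARID1A over shNC, was a log2 fold change of 0.69 in DMSO (SE 0.08, 1.61-fold), 0.99 with E2 (SE 0.08, 1.99-fold) and 0.86 with E2 plus fulvestrant (SE 0.08, 1.82-fold). Over all tested genes, 19.2% were called in DMSO, 27.2% with E2 and 24.2% with E2 plus fulvestrant, where called means an adjusted p under 0.05 in edgeR's quasi-likelihood test with Benjamini-Hochberg adjustment, and the median log2 fold change was -0.01, -0.02 and -0.03 in the same order. A log2 fold change at least as large as that of NDRG1 in all 3 treatments was held by 146 other genes. Of the 205 genes at least as abundant as NDRG1, 2 were among them.

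**Figure D1:**
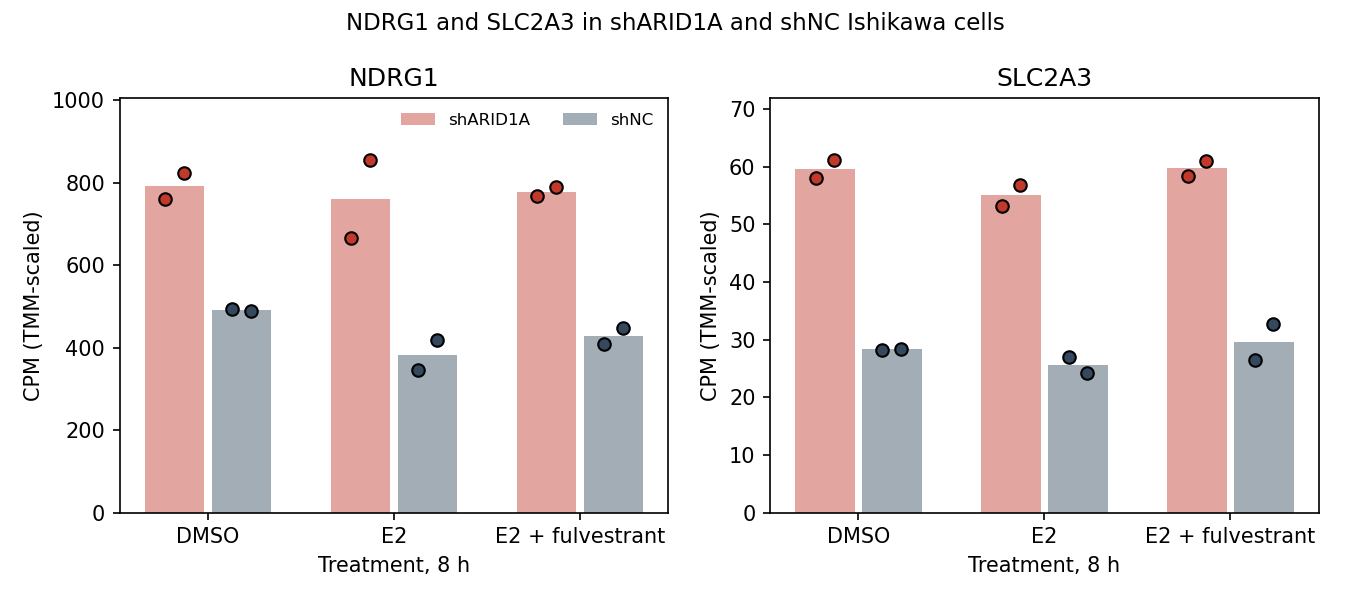
Levels of NDRG1 (left) and SLC2A3 (right) in CPM, with treatments on the horizontal axis; each point is 1 library and each bar the mean of 2 libraries, red for shARID1A and blue-grey for shNC. For NDRG1 the 6 shARID1A libraries sit between 667 and 855 CPM and the 6 shNC libraries between 345 and 493 CPM, and for SLC2A3 the shARID1A libraries sit between 53.3 and 61.2 CPM and the shNC libraries between 24.2 and 32.8 CPM.

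The dependence of the NDRG1 difference on estradiol was 0.30 on the log2 scale (SE 0.11), the difference with E2 minus that in DMSO. With E2 plus fulvestrant it was 0.13 lower than with E2 alone (log2 difference -0.13, SE 0.11) and 0.17 higher than in DMSO (SE 0.11). Each SE comes from the edgeR fit, which estimates the spread of a gene partly from other genes. The SD of NDRG1 between replicates, pooled over the 6 groups, was 0.14 on the log2 scale. The E2 term varied with single libraries. It was 0.11 without replicate 2 of shARID1A with E2, 0.47 without replicate 1 of that group and 0.45 without replicate 2 of shNC with E2. The contrast of E2 plus fulvestrant with E2 was 0.06 without replicate 2 of shARID1A with E2, -0.30 without replicate 1 of that group and -0.28 without replicate 2 of shNC with E2. Leaving out replicate 1 of shNC with E2 mattered too. Within shNC cells, E2 against DMSO was then -0.23, against -0.36 with all libraries. E2 plus fulvestrant against E2 was then 0.03 in shNC cells, against 0.17 with all libraries.

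Those 2 shARID1A libraries with E2 differed most for NDRG1, replicate 2 having 1.28 times the CPM of replicate 1. In the same pair, 18 of 20 glycolysis genes and 26 of 31 hypoxia response genes were higher in replicate 2, and so were 53.5% of all 10338 genes averaging 5 CPM or more. The shARID1A pair with DMSO had 19 of 20 glycolysis genes and 22 of 31 hypoxia response genes higher in replicate 2, with NDRG1 at 1.08 times replicate 1. In the shNC pair with E2, NDRG1 in replicate 2 was 1.21 times replicate 1, with 6 of 20 glycolysis and 21 of 31 hypoxia response genes higher. The other pairs had fewer glycolysis genes higher in replicate 2, at 5 of 20 in shARID1A with E2 plus fulvestrant, 5 of 20 in shNC with E2 plus fulvestrant and 3 of 20 in shNC with DMSO, with 21, 18 and 16 of 31 hypoxia response genes and NDRG1 at 1.03, 1.10 and 0.989 times replicate 1 in the same order. Over all genes, 47.4% to 53.5% were higher in replicate 2 in the 6 pairs. The part of this spread between libraries in the E2 term was not tested.

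The effect of treatment averaged over both arms does not use the difference between arms and was tested. E2 against DMSO gave NDRG1 a log2 fold change of -0.21 (SE 0.05, unadjusted p = 0.000657), and its p adjusted over all genes by edgeR's quasi-likelihood test was 0.999. E2 plus fulvestrant against E2 gave 0.10 (SE 0.06, edgeR adjusted p = 0.417) and E2 plus fulvestrant against DMSO gave -0.11 (SE 0.05, edgeR adjusted p = 0.600). Of all tested genes, 0.00588% were called for E2 against DMSO, 0.0646% for E2 plus fulvestrant against E2 and 0% for E2 plus fulvestrant against DMSO. The first of these NDRG1 values was called without replicate 2 of shNC with E2 (-0.28, edgeR adjusted p = 0.0415), without replicate 2 of shARID1A with E2 (-0.30, edgeR adjusted p = 0.0332), and with no filter on low counts (-0.21, edgeR adjusted p = 4.79e-05). Its adjusted p ran from 4.79e-05 to 1.00 over 17 alternatives.

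Within an arm, the effect of a treatment is a term of the dependence that the genes were picked for, so it is a description without a test. E2 against DMSO gave NDRG1 a log2 fold change of -0.06 in shARID1A cells and -0.36 in shNC cells (SE 0.08 each). In shNC cells this corresponds to 382 CPM with E2, against 490.4 CPM with DMSO. E2 plus fulvestrant against E2 gave 0.03 in shARID1A cells and 0.17 in shNC cells. E2 plus fulvestrant against DMSO gave -0.03 in shARID1A cells and -0.20 in shNC cells.

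SLC2A3 had 835 to 2101 counts per library and stood about 4608th by mean CPM. In shARID1A cells it had 58.1 and 61.2 CPM with DMSO, 53.3 and 56.8 CPM with E2 and 58.3 and 61.1 CPM with E2 plus fulvestrant. In shNC cells it had 28.2 and 28.4 CPM with DMSO, 27.0 and 24.2 CPM with E2 and 26.5 and 32.8 CPM with E2 plus fulvestrant. The arms did not overlap here either, and the lowest shARID1A library was 1.63 times the highest shNC library. Averages were 58.1 ± 2.94 CPM in shARID1A cells and 27.9 ± 2.84 CPM in shNC cells (SD, n = 6 each).

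The SLC2A3 means ran from 59.7 ± 1.94 CPM in shARID1A with E2 plus fulvestrant over 59.6 ± 2.16 CPM with DMSO to 55.0 ± 2.5 CPM with E2 (SD, n = 2 each). In shNC cells the order was the same, 29.6 ± 4.40 CPM with E2 plus fulvestrant, 28.3 ± 0.116 CPM with DMSO and 25.6 ± 1.94 CPM with E2. In both arms the 2 DMSO libraries lay above the 2 E2 libraries. E2 plus fulvestrant overlapped DMSO in both arms and overlapped E2 in shNC cells only.

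The knockdown difference of SLC2A3 was a log2 fold change of 1.07 in DMSO (SE 0.09, 2.10-fold), 1.11 with E2 (SE 0.09, 2.16-fold) and 1.01 with E2 plus fulvestrant (SE 0.09, 2.02-fold). At least this log2 fold change in all 3 treatments was held by 94 other genes, about 15 of them among the roughly 4606 other genes at least as abundant as SLC2A3. Its dependence on treatment was 0.04 for E2 against DMSO, -0.10 for E2 plus fulvestrant against E2 and -0.06 for E2 plus fulvestrant against DMSO (SE 0.13 each, log2 scale). The sign of these small terms depended on single libraries. Without replicate 2 of shNC with E2 plus fulvestrant the last 2 became 0.08 and 0.10, and without replicate 1 of that group -0.22 and -0.19. Leaving these libraries out changed the knockdown difference under E2 plus fulvestrant as well, to 1.17 without replicate 2 and 0.88 without replicate 1.

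Averaged over both arms, E2 against DMSO gave SLC2A3 a log2 fold change of -0.13 (SE 0.07, edgeR adjusted p = 0.999), E2 plus fulvestrant against E2 gave 0.16 (SE 0.07, unadjusted p = 0.0195, edgeR adjusted p = 0.246) and E2 plus fulvestrant against DMSO gave 0.03 (SE 0.07, edgeR adjusted p = 0.912). Within shARID1A cells the same 3 effects, here untested, were -0.11, 0.12 and 0.00, and within shNC cells -0.15, 0.21 and 0.06. Over the 3 averaged treatment contrasts, edgeR and DESeq2 each called 0 for NDRG1 and 0 for SLC2A3, with 1 of the 3 for each gene at an unadjusted edgeR p under 0.05. A p that misses the threshold does not show that estradiol left these transcripts alone.

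**Figure D2:**
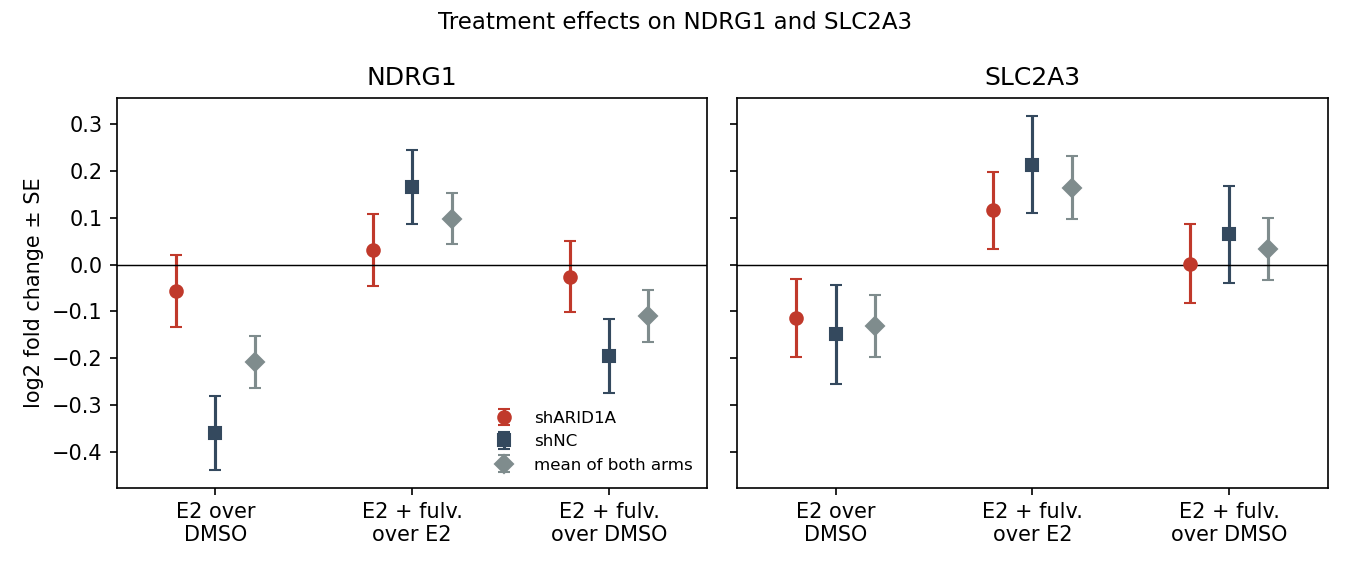
Treatment effects on NDRG1 (left) and SLC2A3 (right), as log2 fold change ± SE from edgeR, in shARID1A cells (red circles), shNC cells (blue-grey squares) and averaged over both arms (grey diamonds). For NDRG1 the E2 effect in shNC cells (-0.36) is the farthest from 0, while every SLC2A3 effect lies between -0.15 and 0.21.

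SLC2A3 has close copies elsewhere in the genome, and reads could be divided among them. The paralog SLC2A14, 28.1 kb away on the same chromosome, had only 3 to 12 counts per library. Of 3 pseudogenes named as copies of SLC2A3, looked up after their values were seen, SLC2A3P2 had at most 4 and SLC2A3P4 at most 2 counts. SLC2A3P1 (chromosome 5, 167979282 to 167980732) had 332 to 399 counts in the shARID1A libraries and 441 to 558 counts in the shNC libraries. It was lower in shARID1A cells by the test, with E2 (log2 fold change -0.47, edgeR adjusted p = 0.00807) and with E2 plus fulvestrant (-0.41, edgeR adjusted p = 0.0279), and had -0.22 in DMSO (edgeR adjusted p = 0.286). With all 4 copies added to SLC2A3, a setting chosen after seeing the data, the SLC2A3 difference was 0.75 in DMSO, 0.69 with E2 and 0.66 with E2 plus fulvestrant. How the counts of SLC2A3P1 arose was not tested, so the size of the SLC2A3 difference is uncertain to that extent.

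Of the other NDRG family genes, 2 had enough counts to be tested. NDRG1 had 89.5 ± 7.42 CPM per kb of exon in shARID1A and 49.9 ± 6.39 CPM per kb in shNC cells. NDRG3, the next most abundant of the family, had 28.3 ± 1.46 CPM per kb in shARID1A and 26.1 ± 0.823 CPM per kb in shNC cells (SD, n = 6 each). NDRG3 was called with E2 plus fulvestrant (log2 fold change 0.21, edgeR adjusted p = 0.0221) and was not called in DMSO (0.07) or with E2 (0.08). Whether the knockdown difference changed between treatments was tested by edgeR for 113 genes, NDRG3 among them and NDRG1 and SLC2A3 left out. Over the 3 differences between treatments, 0 passed an adjusted p of 0.05. Of all 17020 tested genes, 1079 had an unadjusted edgeR p under 0.05 for E2 against DMSO. The numbers were 592 for E2 plus fulvestrant against E2 and 814 for E2 plus fulvestrant against DMSO. With so few libraries, 0 passing does not show that the knockdown difference was the same in all treatments. Nor does a call in only some treatments show dependence on treatment. NDRG4 averaged 1.43 CPM in shARID1A and 1.73 CPM in shNC cells and was not called, and NDRG2 had at most 3 counts.

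Among the other genes of the SLC2A family, 8 were tested and edgeR called 0 higher and 2 lower in shARID1A cells in each treatment (0 higher at an unadjusted p under 0.05, and 0 higher by DESeq2). Of all genes, 9.7% were called higher and 9.5% lower in DMSO, 13.4% higher and 13.8% lower with E2, and 11.4% higher and 12.8% lower with E2 plus fulvestrant. SLC2A1 encodes GLUT1, the widespread basal glucose transporter. Per kb of exon it exceeded SLC2A3 in both arms, at 66.4 ± 4.54 CPM per kb in shARID1A and 75.7 ± 3.79 CPM per kb in shNC cells, against 9.57 ± 0.485 for SLC2A3 in shARID1A and 4.59 ± 0.468 in shNC cells. SLC2A1 was lower in shARID1A than in shNC cells with E2 (log2 fold change -0.24, edgeR adjusted p = 0.00575) and with E2 plus fulvestrant (-0.18, edgeR adjusted p = 0.0491). In DMSO it had -0.15 (edgeR adjusted p = 0.103). Here and below, a gene that rose or fell was higher or lower in shARID1A than in shNC cells within the treatment named.

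SLC2A8, which encodes the intracellular transporter GLUT8, was lower in shARID1A cells in DMSO (-0.38, edgeR adjusted p = 0.00172) and with E2 plus fulvestrant (-0.35, edgeR adjusted p = 0.00371), and had -0.21 with E2 (edgeR adjusted p = 0.0576). SLC2A11 was lower in shARID1A cells in DMSO (-0.66, edgeR adjusted p = 0.0168) and with E2 (-0.50, edgeR adjusted p = 0.0346), and had -0.48 with E2 plus fulvestrant (edgeR adjusted p = 0.0804). SLC2A6 averaged 59.3 CPM in shARID1A and 63.7 CPM in shNC cells, and SLC2A13 averaged 12 CPM in shARID1A and 12.6 CPM in shNC cells; neither was called. SLC2A4, SLC2A5 and SLC2A9 stayed under 1.5 CPM on average and were not called, and SLC2A2 and SLC2A10 had 0 counts in all 12 libraries.

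**Figure D3:**
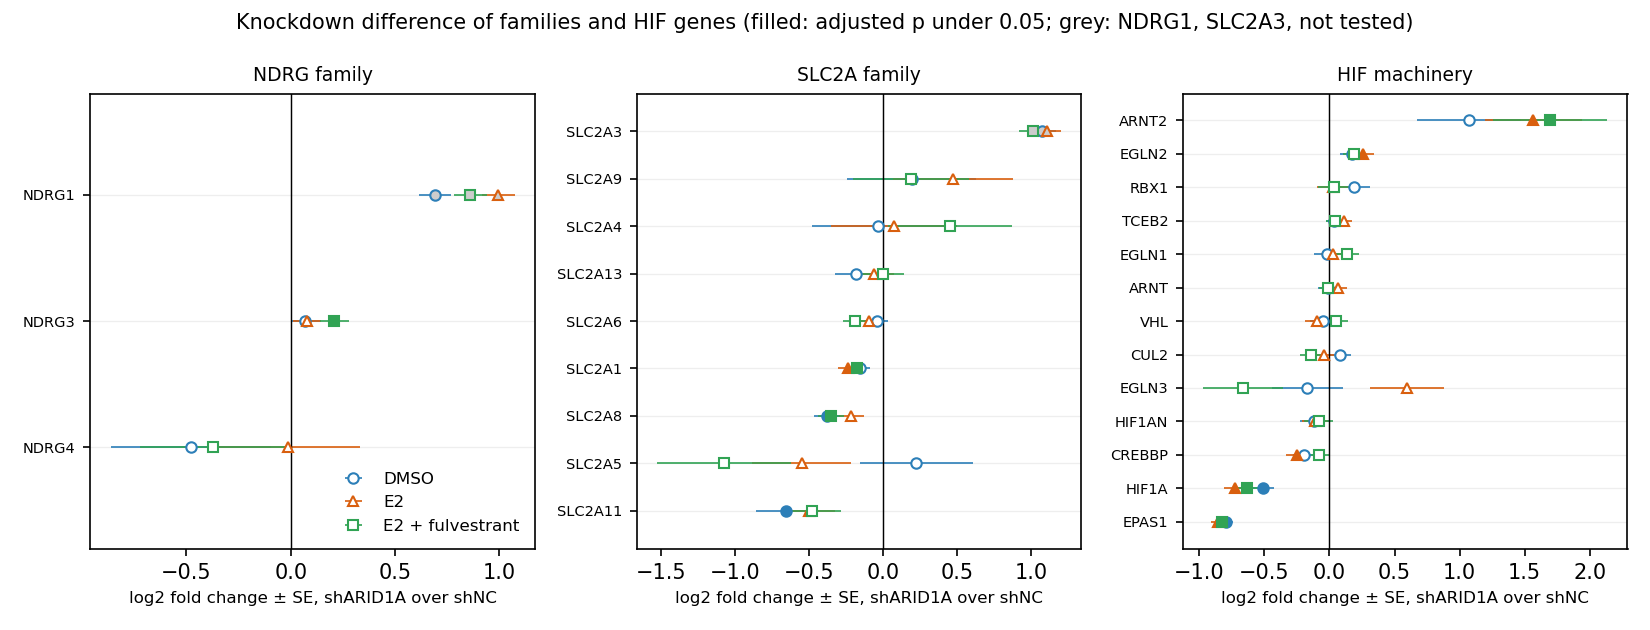
Knockdown difference (log2 fold change ± SE, shARID1A over shNC) of the NDRG family (left), the SLC2A family (middle) and genes of the HIF system (right), with a circle for DMSO, a triangle for E2 and a square for E2 plus fulvestrant; filled markers have an edgeR adjusted p under 0.05 and grey ones are NDRG1 and SLC2A3, which were not tested. NDRG1 and SLC2A3 lie at 0.69 to 1.11, while EPAS1 and HIF1A lie between -0.85 and -0.51.

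The genes of the HIF system itself included 13 tested. In DMSO 0 were called higher by edgeR (1 at an unadjusted p under 0.05, 0 by DESeq2) and 2 lower, with E2 2 higher and 3 lower, and with E2 plus fulvestrant 1 higher and 2 lower. As shares these are 0%, 15.4% and 7.69% higher, against 9.7%, 13.4% and 11.4% of all genes, and 15.4%, 23.1% and 15.4% lower, against 9.5%, 13.8% and 12.8% of all genes. HIF1A, the oxygen-regulated alpha subunit found in most cells, fell to 79.0 ± 8.14 CPM in shARID1A cells, against 122 ± 12.2 CPM in shNC cells (SD, n = 6 each). Its log2 fold change was -0.51 in DMSO, -0.73 with E2 and -0.64 with E2 plus fulvestrant (edgeR adjusted p = 5.07e-05, 1.32e-07 and 1.27e-06). EPAS1, which encodes HIF-2 alpha, fell to 228 ± 4.19 CPM in shARID1A cells, against 404 ± 12.4 CPM in shNC cells. Its log2 fold change was -0.80 in DMSO, -0.85 with E2 and -0.83 with E2 plus fulvestrant (edgeR adjusted p = 7.08e-13, 9.04e-14 and 2.69e-13).

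The transcripts for both oxygen-regulated subunits were thus lower in the arm in which NDRG1 and SLC2A3 were higher. The partner subunit ARNT averaged 87.4 CPM in shARID1A and 86.6 CPM in shNC cells, VHL averaged 29.8 CPM in shARID1A and 30.5 CPM in shNC cells, and the main HIF prolyl hydroxylase gene EGLN1 averaged 34.5 CPM in shARID1A and 33.4 CPM in shNC cells; none of the 3 was called. ARNT2, an alternative partner subunit best known from neural tissue, was higher in shARID1A cells with E2 (1.57, edgeR adjusted p = 0.00164) and with E2 plus fulvestrant (1.70, edgeR adjusted p = 0.00442). Its level was low, averaging 1.83 CPM in shARID1A and 0.677 CPM in shNC cells. Among cells given E2, EGLN2, another HIF prolyl hydroxylase gene, was higher in shARID1A than in shNC (0.26, edgeR adjusted p = 0.0234). CREBBP, a coactivator that binds HIF, was lower in the same comparison (-0.25, edgeR adjusted p = 0.0245). HIF protein was not measured.

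Glycolysis genes were called mostly upward in shARID1A cells. Of 20 tested, 7 rose and 3 fell in DMSO, 11 rose and 2 fell with E2, and 8 rose and 2 fell with E2 plus fulvestrant, with median log2 fold changes of 0.08, 0.16 and 0.14 in the same order. The rising shares of 35.0%, 55.0% and 40.0% stood beside 9.7%, 13.4% and 11.4% of all genes, and the falling shares of 15.0%, 10.0% and 10.0% beside 9.5%, 13.8% and 12.8%. Here and below, the shares of all genes are not matched for abundance. Small differences are called more readily in abundant genes, such as PGK1 at 0.14 in DMSO (SE 0.05). PFKL, PFKM, ALDOA, ALDOC, TPI1, PGK1 and ENO1 rose in all 3 treatments, which is 35.0% of the list, and 6.76% of all tested genes did the same. HK1 and ENO2 fell in all 3, 10.0% of the list, as did 6.50% of all tested genes. PFKL, the liver-type phosphofructokinase that commits sugar to glycolysis, averaged 496 ± 24.2 CPM in shARID1A and 383 ± 22.1 CPM in shNC cells (log2 fold change 0.33, 0.42 and 0.38; edgeR adjusted p of at most 6.10e-05).

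The called rises within glycolysis reached at most 0.68 on the log2 scale. ALDOC, the brain-type aldolase, had 0.57, 0.68 and 0.68 (55.5 ± 4.00 CPM in shARID1A, 35.6 ± 4.12 CPM in shNC), the highest of the rises among the genes named here. The abundant enzymes moved less, ENO1 by 0.19, 0.24 and 0.23 (5503 ± 179 CPM in shARID1A, 4737 ± 165 CPM in shNC), ALDOA by 0.21, 0.24 and 0.26, and PGK1, which encodes the first ATP-yielding enzyme of the pathway, by 0.14, 0.27 and 0.20. ENO2, the neuronal enolase, fell (log2 fold change -0.62, -0.45 and -0.57; 48.7 ± 5.89 CPM in shARID1A, 71.3 ± 5.16 CPM in shNC). GAPDH, PKM, GPI, PFKP, PDK1 and SLC16A3, 6 of the 20, were not called in any treatment (30.0%, against 64.4% of all genes).

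The wider hypoxia response list was divided. Of 31 tested, 6 rose and 8 fell in DMSO, 8 rose and 6 fell with E2, and 4 rose and 6 fell with E2 plus fulvestrant, with median log2 fold changes of 0.06, 0.11 and -0.03 in the same order. The rising shares were 19.4%, 25.8% and 12.9%, against 9.7%, 13.4% and 11.4% of all genes, and the falling shares 25.8%, 19.4% and 19.4%, against 9.5%, 13.8% and 12.8%. NDUFA4L2, PLOD1 and CXCR4 rose in all 3 treatments, while DDIT4, LOX, BHLHE40 and WSB1 fell in all 3. These are 9.68% and 12.9% of the list, against 6.76% and 6.50% of all genes. Another 12 of the 31 were not called in any treatment (38.7%, against 64.4% of all genes). NDUFA4L2, a HIF-induced mitochondrial protein that lowers respiratory activity, rose by 1.32, 1.79 and 1.54 on the log2 scale (24.2 ± 5.02 CPM in shARID1A, 8.44 ± 1.95 CPM in shNC; edgeR adjusted p of at most 4.21e-06). PLOD1, a collagen lysyl hydroxylase, rose by 0.38, 0.43 and 0.42 (384 ± 18.2 CPM in shARID1A, 289 ± 17.1 CPM in shNC).

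BHLHE40 and LOX, which fell, had the lowest ranks of adjusted p on this list, summed over the 3 treatments. BHLHE40, a transcriptional repressor, averaged 37.1 ± 3.26 CPM in shARID1A and 81.9 ± 4.24 CPM in shNC cells (-1.06, -1.15 and -1.22). LOX, a collagen cross-linking oxidase, averaged 10.9 ± 0.671 CPM in shARID1A and 24.8 ± 2.37 CPM in shNC cells (-1.11, -1.24 and -1.21). WSB1, a ubiquitin ligase subunit, averaged 70.04 ± 3.67 CPM in shARID1A and 87.0 ± 3.65 CPM in shNC cells (-0.31, -0.38 and -0.25; edgeR adjusted p of at most 0.0116). VEGFA, the angiogenic growth factor, fell in DMSO (-0.19, edgeR adjusted p = 0.0198) and had -0.11 with E2 and -0.13 with E2 plus fulvestrant. CA9, a membrane carbonic anhydrase often used as a hypoxia marker, averaged 1.04 CPM in shARID1A and 0.554 CPM in shNC cells and was not called (0.17, 2.04 and 1.43; edgeR adjusted p = 0.864, 0.0542 and 0.0763).

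**Figure D4:**
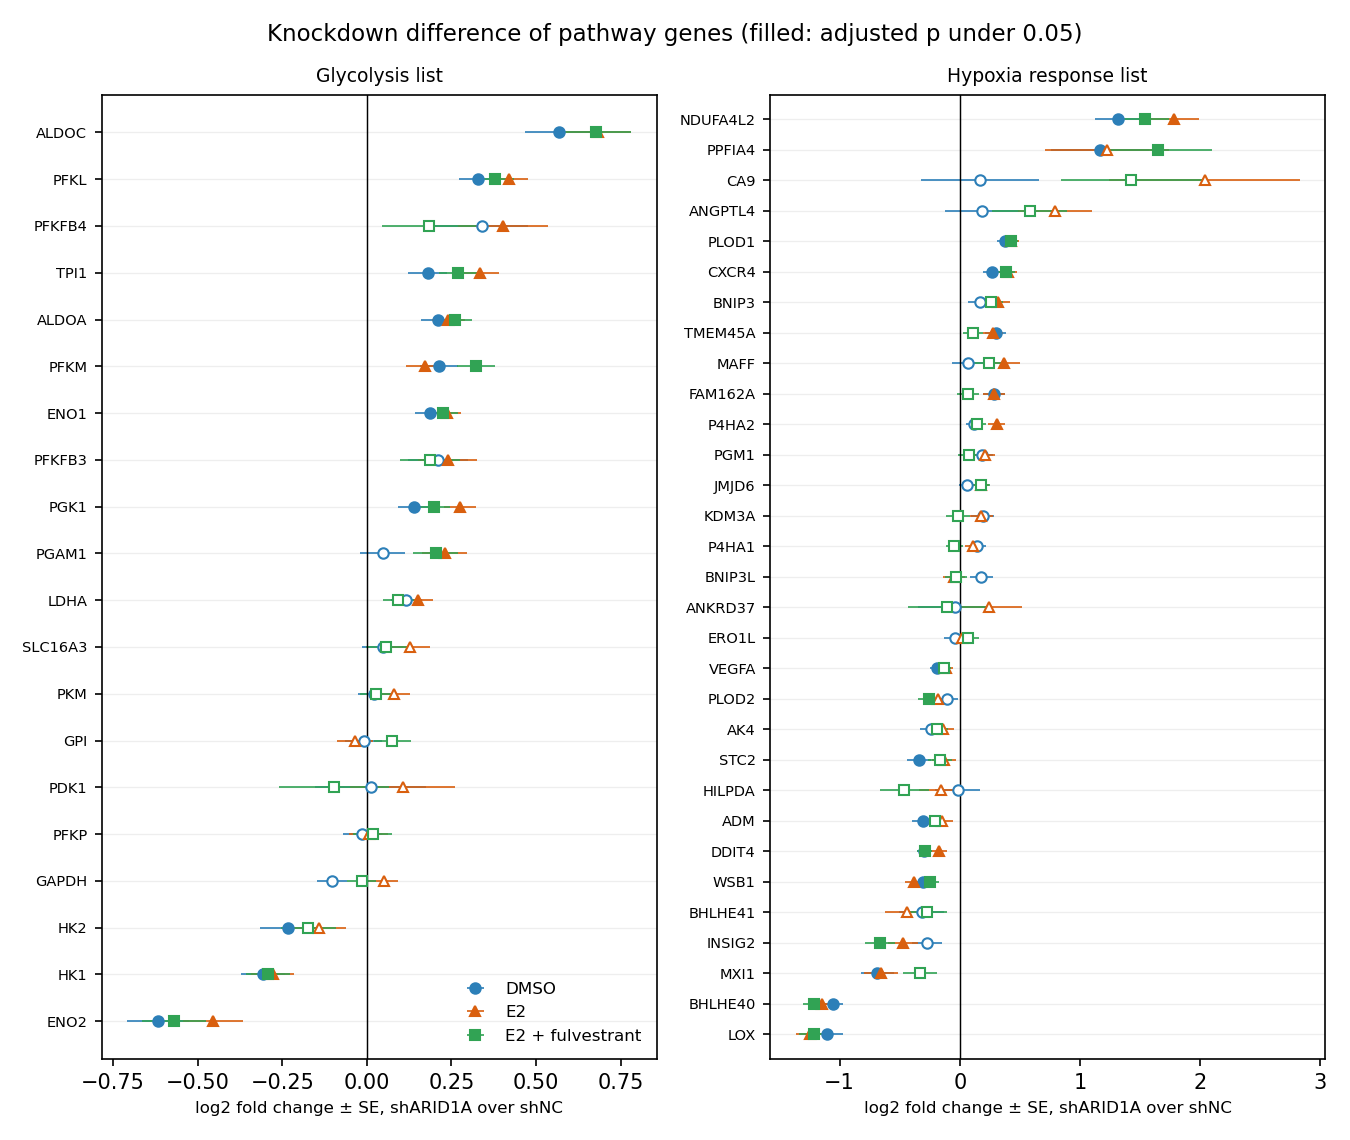
Knockdown difference (log2 fold change ± SE, shARID1A over shNC) of each tested glycolysis gene (left) and hypoxia response gene (right), ordered by the mean over treatments; circle for DMSO, triangle for E2, square for E2 plus fulvestrant, filled where the edgeR adjusted p is under 0.05. Glycolysis genes lie between ENO2 at -0.62 and ALDOC at 0.68, and the hypoxia response genes spread from LOX at -1.24 to CA9 at 2.04.

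In the glycolysis and hypoxia response lists combined, 51 genes were tested, of which 13 rose and 11 fell in DMSO, 19 rose and 8 fell with E2, and 12 rose and 8 fell with E2 plus fulvestrant. The rising share was thus 25.5%, 37.3% and 23.5% in that order, against 9.7%, 13.4% and 11.4% of all genes. The falling share was 21.6%, 15.7% and 15.7%, against 9.5%, 13.8% and 12.8% of all genes. With E2 and with E2 plus fulvestrant the falling share was thus close to that of all genes, while in DMSO it was above it. Whether these counts differ between treatments was not tested. Leaving out a library leaves a single library in its group. Some of these counts then fell, and the number of calls over all genes could fall too. Whether the lists lost more calls than all genes did was not tested.

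For E2 against DMSO averaged over arms, edgeR called 0 of the 81 tested genes of the 6 lists, with 8 at an unadjusted p under 0.05 (9.88%, against 4.09% of all genes) and 0 by DESeq2. For E2 plus fulvestrant against E2 the counts were 0, 18 (22.2%, against 14.6% of all genes) and 3 (3.7%, against 1.73%). For E2 plus fulvestrant against DMSO they were 0, 13 (16.0%, against 8.35%) and 0, in the same order.

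Of the genes that act on NDRG1, the kinase gene SGK1 averaged 207 ± 6.37 CPM in shARID1A and 158 ± 4.85 CPM in shNC cells. SGK1 rose in DMSO (log2 fold change 0.41), with E2 (0.34) and with E2 plus fulvestrant (0.41), with edgeR adjusted p of at most 3.45e-05. GSK3A was higher in shARID1A than in shNC cells with E2 (0.25, edgeR adjusted p = 0.0153), while GSK3B and SGK3 were not called. MYC, a repressor of NDRG1, averaged 208 ± 6.18 CPM in shARID1A and 210.3 ± 6.80 CPM in shNC cells and was not called, nor was its partner MAX (64.0 CPM in shARID1A and 61.8 CPM in shNC cells). In all, 1 of 7 rose in DMSO, 2 rose with E2 and 1 rose with E2 plus fulvestrant, while edgeR called 0 lower in any treatment (at an unadjusted p under 0.05, 0 in DMSO, 0 with E2 and 1 with E2 plus fulvestrant, and 0 by DESeq2). These rising shares of 14.3%, 28.6% and 14.3% rest on 1 or 2 genes, beside 9.7%, 13.4% and 11.4% of all genes. Of all genes, 9.5%, 13.8% and 12.8% were called lower in the same order. With only 7 genes tested, 0 called lower does not set this list apart from all genes.

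The surroundings of both genes were sparsely transcribed. Within 500 kb of NDRG1 lay 19 other genes, of which 4 passed the filter, and edgeR called 0 of them higher in any treatment (0 at an unadjusted p under 0.05, 0 by DESeq2). PHF20L1, 388 kb away, which encodes a chromatin reader protein, was lower in shARID1A cells with E2 (-0.57, edgeR adjusted p = 0.000325) and with E2 plus fulvestrant (-0.38, edgeR adjusted p = 0.0135). ST13P6, ST3GAL1 and ENSG00000261220.2 were not called. Within 500 kb of SLC2A3 lay 36 other genes, 5 of which passed the filter, and again edgeR called 0 higher (0 at an unadjusted p under 0.05, 0 by DESeq2). Of all genes, 9.7% were called higher in DMSO, 13.4% with E2 and 11.4% with E2 plus fulvestrant. With so few neighbours tested, 0 called higher does not set these surroundings apart from all genes. The pseudogene FAM86FP, at 0.378 CPM in shARID1A and 1.11 CPM in shNC cells, fell in all 3 treatments (-1.58, -1.54 and -1.47; edgeR adjusted p of at most 0.0310). FOXJ2, a transcription factor gene 97.2 kb away, NECAP1, CD163L1 and RP11-157G21.2 were not called.

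The genes whose pattern over the 12 libraries was most like each of the 2 were ranked by the root mean square difference of centred log2 CPM among 9868 genes that had a symbol and averaged 5 CPM or more, as a description. For NDRG1 they were GRTP1 (0.13), HCFC1R1 (0.13), EFHD2 (0.13), FAH (0.13) and MALSU1 (0.14), and SLC2A3 came 43rd (0.17). HCFC1R1 averaged 35.5 ± 2.83 CPM in shARID1A and 18.3 ± 1.74 CPM in shNC cells, with knockdown differences of 0.77 in DMSO, 1.09 with E2 and 1.00 with E2 plus fulvestrant. FAH, which encodes the last enzyme of tyrosine breakdown, had 0.72, 0.98 and 0.66. For SLC2A3 they were PPP2R2B (0.11), LPL (0.12), PAPPA2 (0.12), CUL4A (0.12) and CAV1 (0.13), and NDRG1 came 37th. LPL, which encodes lipoprotein lipase, averaged 150.5 ± 10.1 CPM in shARID1A and 74.1 ± 4.79 CPM in shNC cells, and CAV1, which encodes the caveolar coat protein caveolin-1, averaged 92.3 ± 6.52 CPM in shARID1A and 48.5 ± 3.85 CPM in shNC cells.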

How the data were processed

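The authors deposited unnormalized counts of reads for each gene. The submitters' processing notes list cutadapt and Trim Galore (trimming), FastQC (quality), Subread 2.0.0 (alignment) and the build hg19. Per the file headers, featureCounts 2.0.0 summed exons into genes without any option for strand, read pairs or multiple alignments. Overlapping genes and near-identical copies can therefore share or lose reads.

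edgeR 4.0.16 under R 4.3.3 was used to fit all 12 libraries, with 1 mean per group, filterByExpr by group and TMM factors. Contrasts were tested with glmQLFit and glmQLFTest and adjusted by Benjamini-Hochberg over 17020 genes. Alternatives were RLE factors, no filter, the replicate number as a block, only the groups compared, DESeq2 1.42.0, SLC2A14 added to SLC2A3, each library left out, a 1 Mb window, and a prior count of 0.5 or a minimum of 1 CPM for likeness. The scripts were tested on simulated data.

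NDRG1, SLC2A3 and the 6 gene lists were chosen with earlier results of these data known. Named genes are, per list, the 5 lowest in summed rank of adjusted p, the family members, preset pathway genes, neighbours within 500 kb and the 5 genes most like each. Genes called in all 3 treatments are named beside their counts. Treatment effects within arms are given for NDRG1 and SLC2A3 without the test first planned, since they are terms of the dependence that chose these genes. Listed genes with no matching symbol or below the filter are not analysed here, and 2 genes were removed from the lists and are not reported here.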

Additional observations from a re-analysis of the deposited data

How the results depend on the processing

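The knockdown differences of NDRG1 and SLC2A3 kept their sign in every alternative run. Leaving out each library in turn moved NDRG1 from 0.64 to 0.75 in DMSO, 0.80 to 1.16 with E2 and 0.81 to 0.93 with E2 plus fulvestrant, and SLC2A3 from 1.04 to 1.11, 1.03 to 1.19 and 0.88 to 1.17 in the same order of treatments. The dependence on treatment ran from 0.11 to 0.47 for NDRG1 with E2 against DMSO, -0.30 to 0.057 with E2 plus fulvestrant against E2 and 0.11 to 0.24 with E2 plus fulvestrant against DMSO. For SLC2A3 it ran from -0.044 to 0.11, -0.22 to 0.075 and -0.19 to 0.10.

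The E2 effect on NDRG1 averaged over arms ran from -0.30 to -0.13 with a library left out, and was called with no filter on low counts (-0.21, edgeR adjusted p = 4.79e-05). The cause was not tested. Within arms, untested, it ran from -0.50 to -0.23 in shNC and from -0.25 to 0.11 in shARID1A cells; E2 plus fulvestrant against E2 ran from 0.034 to 0.31 in shNC and from -0.14 to 0.22 in shARID1A cells, and against DMSO from -0.081 to 0.030 in shARID1A cells. For SLC2A3 in shNC cells, E2 plus fulvestrant against E2 ran from 0.051 to 0.34. SLC2A3 with E2 plus fulvestrant against DMSO ran from -0.044 to 0.10 over both arms, -0.10 to 0.20 in shNC and -0.035 to 0.038 in shARID1A cells, and in shARID1A cells it was 0.00 before and -0.000488 after SLC2A14 was added. With all 4 copies added to SLC2A3, a choice made after seeing the data, the knockdown difference was 0.75, 0.69 and 0.66, E2 plus fulvestrant against DMSO in shARID1A cells was -0.018, and the dependence on E2 was -0.058.

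Counts of glycolysis and hypoxia response genes called with a library left out ran from 7 to 13 higher and 6 to 11 lower in DMSO and from 10 to 21 higher with E2. Over all genes, the knockdown calls numbered 3268 in DMSO (2005 without replicate 2 of shARID1A with DMSO), 4633 with E2 (2748 without shNC replicate 2 of that treatment) and 4120 with E2 plus fulvestrant (2310 without shARID1A replicate 1 of that treatment). For E2 plus fulvestrant against E2 averaged over arms the count was 11 in edgeR, 294 in DESeq2, 256 with no filter, 40 with the replicate block and 0 to 222 with a library left out. E2 against DMSO gave 1 (0 to 8 over the alternatives) and E2 plus fulvestrant against DMSO 0 (0 to 20).

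Over 15 pairs of groups, the replicate differences correlated at -0.22 to 0.28 across 10338 genes. They were above 0.1 in 7 pairs, namely all 3 within shNC (0.16 to 0.28), shARID1A with E2 plus fulvestrant against each shNC group (0.12 to 0.24) and shARID1A with DMSO against E2 (0.12), and -0.22 to -0.071 in the other 8, so the numbers were not taken as pairing the libraries of all 6 groups. With the replicate block, the E2 effect on NDRG1 averaged over arms was -0.22, and no averaged treatment effect on NDRG1 or SLC2A3 changed its call. The 5 genes most like each of the 2 were the same 5 under both alternatives.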

Other observations

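A wider window of 1 Mb around SLC2A3 held 72 other genes, 22 of them tested, of which 7 were called lower in DMSO, 8 lower with E2 (1 higher) and 6 lower with E2 plus fulvestrant (2 higher), all by edgeR's quasi-likelihood test. These genes were chosen after their values were seen. Of all genes, 9.5% were called lower in DMSO, 13.8% with E2 and 12.8% with E2 plus fulvestrant. The shares called higher were 9.7%, 13.4% and 11.4% in the same order. C1S and C1R, which encode the serine proteases of the first complement component, lie 893 and 827 kb from SLC2A3. C1S averaged 18.5 ± 1.18 CPM in shARID1A and 46.3 ± 3.35 CPM in shNC cells (SD, n = 6 each), and its log2 fold change was -1.25 in DMSO, -1.35 with E2 and -1.37 with E2 plus fulvestrant. C1R averaged 8.13 ± 1.06 CPM in shARID1A and 23.5 ± 1.34 CPM in shNC cells (-1.36, -1.58 and -1.66), and the related C1RL fell too (-0.46, -0.74 and -0.59). CLSTN3 also fell in all 3 treatments (-0.52, -0.53 and -0.65), while PEX5, a peroxisomal import receptor gene, was higher in shARID1A cells with E2 plus fulvestrant (0.41, edgeR adjusted p = 0.000705). The same window around NDRG1 added 6 genes, and none of them passed the filter.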
